A study of Mus musculus with 14 samples.

Results

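The MYC, MAX and MXD network is a set of transcription factors that compete for the same DNA. The set described here holds 10 genes, taken from the count table by name: Myc and Mycn (the activators), Max (the shared partner), Mxd1, Mxd3, Mxd4, Mxi1, Mnt and Mga (the antagonists) and Mlx (a second partner). All 10 names matched a gene, of 53465 in the table. Of these, 9 had enough counts to be tested, among 10791 tested genes, and Mycn had none. RNA was sequenced from the mouse acute myeloid leukemia (AML) line KL974 in 14 libraries, 7 groups of 2. The study knocked down Ogdh, the E1 subunit of the 2-oxoglutarate dehydrogenase complex of the tricarboxylic acid cycle, with a pair of hairpins, shOgdh346 and shOgdh2081. Cells with the control hairpin shRen713 were taken before doxycycline (day 0). They were taken again on days 2 and 4 of doxycycline, each time sorted into BFP negative (hairpin not induced) and BFP positive (induced) cells. Each Ogdh hairpin was taken as BFP positive cells on day 4 only. All groups shared the line, its labelled genotype (Trp53R172H with shMll3 and shNf1), a medium with IL3, IL6 and SCF, and prior transduction with a lentivirus that expresses a doxycycline-inducible hairpin linked to BFP. All results therefore come from 1 line.

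In this network MYC binds DNA as a heterodimer with MAX, at a short palindrome called the E box, and raises transcription of genes for ribosomes, metabolism and growth. The MXD proteins and MNT also pair with MAX, bind the same E boxes and bring in the SIN3 and histone deacetylase corepressor, so that they oppose MYC. MGA pairs with MAX too and sits in a variant Polycomb complex, PRC1.6. MLX pairs with MXD1, MXD4 and MNT and also with the glucose-sensing factors MondoA and ChREBP. In blood cells MYC is known for driving progenitor growth, and MXD genes for being expressed as cells leave the cycle and mature.

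Promoter sequences are shown for members with an E box in their own promoter, since MAX dimers bind that motif, with Mga added as a gene that changed on Ogdh knockdown and has none. Each window runs from 250 bases before to 50 bases after a RefSeq gene start (GRCm38.p6), 5′ to 3′ on the gene's strand, and capitals mark CACGTG, which reads the same on both strands. Windows were found for 9 of the 10 members, Myc having no entry. Those 9 members had 11 windows together. The motif was in 4 of the 11, each of a different member, and in 7.15% of all 32851 windows. A match describes letters only. It is not a binding site that these data measured.
Mxd4 (chr5:34187661-34187960, minus strand): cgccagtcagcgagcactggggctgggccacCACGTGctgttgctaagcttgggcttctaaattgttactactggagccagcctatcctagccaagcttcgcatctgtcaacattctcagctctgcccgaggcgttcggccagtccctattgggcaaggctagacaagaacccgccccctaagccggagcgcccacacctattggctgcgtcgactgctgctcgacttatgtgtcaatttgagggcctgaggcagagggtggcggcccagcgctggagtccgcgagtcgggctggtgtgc
Max (chr12:76962199-76962498, minus strand): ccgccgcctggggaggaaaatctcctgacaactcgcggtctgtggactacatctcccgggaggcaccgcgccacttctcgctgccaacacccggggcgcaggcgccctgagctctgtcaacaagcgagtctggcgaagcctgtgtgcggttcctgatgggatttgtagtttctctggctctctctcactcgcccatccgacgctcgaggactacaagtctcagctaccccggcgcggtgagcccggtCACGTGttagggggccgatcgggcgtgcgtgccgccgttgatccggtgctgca
Mnt (chr11:74830674-74830973, plus strand): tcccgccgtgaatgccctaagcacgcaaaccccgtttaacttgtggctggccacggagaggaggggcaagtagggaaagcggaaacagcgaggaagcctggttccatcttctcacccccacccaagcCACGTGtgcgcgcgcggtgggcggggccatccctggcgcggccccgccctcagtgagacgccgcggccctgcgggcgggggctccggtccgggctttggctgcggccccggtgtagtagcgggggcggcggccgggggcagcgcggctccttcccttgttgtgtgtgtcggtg
Mlx (chr11:101087040-101087339, plus strand): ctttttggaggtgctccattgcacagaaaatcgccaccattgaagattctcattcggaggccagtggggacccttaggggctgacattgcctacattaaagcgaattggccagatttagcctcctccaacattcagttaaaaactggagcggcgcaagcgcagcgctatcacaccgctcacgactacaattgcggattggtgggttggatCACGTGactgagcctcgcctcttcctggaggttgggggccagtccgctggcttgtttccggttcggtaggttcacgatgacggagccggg
Mga (chr2:119896978-119897277, plus strand): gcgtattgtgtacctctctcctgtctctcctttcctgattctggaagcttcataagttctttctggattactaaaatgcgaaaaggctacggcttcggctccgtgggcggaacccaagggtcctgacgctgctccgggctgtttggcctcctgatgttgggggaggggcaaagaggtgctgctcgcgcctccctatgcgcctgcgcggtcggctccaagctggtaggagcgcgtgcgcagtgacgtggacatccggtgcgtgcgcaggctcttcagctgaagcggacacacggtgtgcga
The first base of the motif lies at -219 in Mxd4, -3 in Max, -123 in Mnt and -40 in Mlx, counted from the gene start. The windows of Mxd1, Mxd3, Mxi1 and Mycn, like that of Mga, do not hold these 6 letters.

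Libraries held from 913482 to 10271698 counts, and depth was uneven within each Ogdh hairpin (5680900 and 1159021 counts for shOgdh346, 913482 and 4627632 for shOgdh2081). Ogdh itself fell by 2.19 ± 0.09 on the log2 scale in the knockdown cells (edgeR adjusted p = 1.63e-30). The progenitor markers Kit (mean 515 CPM, the count scaled to a common library total) and Myb (708 CPM) were present. The other 6 of 8 myeloid progenitor markers were under 1 CPM, among them Mpo, Cd34 and Elane, and so were all 8 neutrophil markers.

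Levels within the network were led by Myc. Scaled by transcript length and averaged over the 7 groups, Myc stood at 116 CPM per kilobase. Mlx followed at 34.4, Mga at 24.3 and Max at 21.2 CPM per kilobase. Mxi1 (10.9) and Mnt (10.4) were lower, and Mxd3 (6.56), Mxd4 (5.23) and Mxd1 (4.75 CPM per kilobase) were the lowest. Mycn, the MYC paralog of neural and embryonic tissue, had 0 counts in every library. Over all 48249780 counts this allows a level of up to 0.0622 CPM, from counting error only. Mycl, the third MYC gene, also had 0 counts. Myc was thus the only one of the MYC genes with counts.

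**Figure D1:**
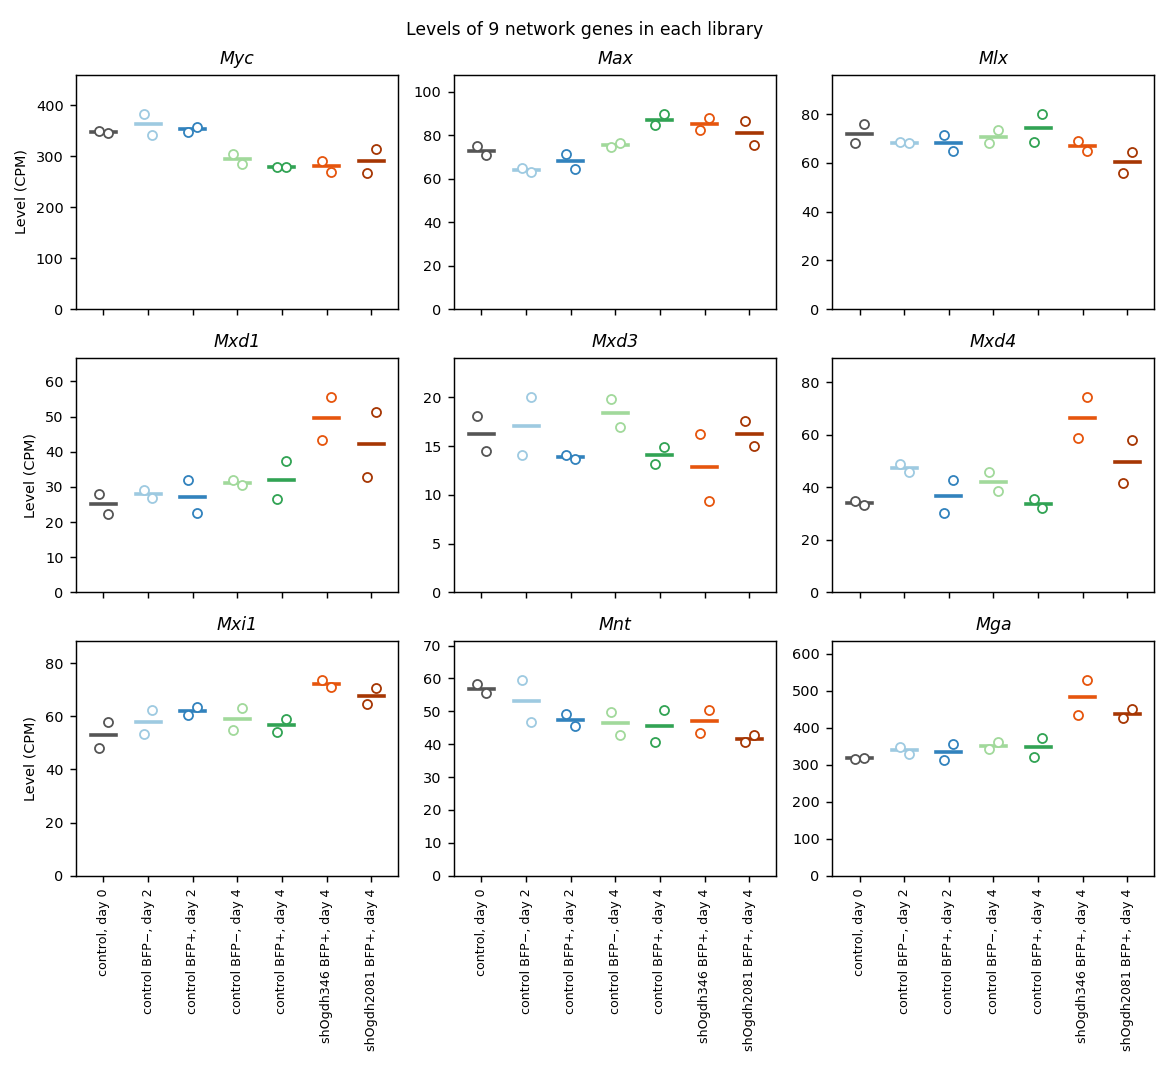
Level of each of the 9 tested genes (y axis, CPM) in the 7 groups (x axis), with 1 circle per library and a bar at the mean of 2. Myc is lower in every day 4 library than at days 0 and 2, while Mxd1, Mxd4, Mxi1 and Mga have their highest libraries among the Ogdh knockdown cells.

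Myc, the proto-oncogene that the network is named for, lies at chr15:61985391-61990374 (plus strand, GRCm38). In control cells it was lower on day 4 than on days 0 and 2. It did not pass the test on Ogdh knockdown. It stood at 349 and 346 CPM on day 0. On day 2 it was at 383 and 341 CPM in BFP negative cells, and at 348 and 357 CPM in BFP positive cells. On day 4 it was at 304 and 284 CPM in BFP negative cells and at 278 and 279 CPM in BFP positive cells. The libraries of days 0 and 2 overlapped with each other, and all of them lay above every library of day 4. How many of all tested genes separate by day in this way was not counted. By edgeR's quasi-likelihood test, Myc was lower on day 4 than on day 0 in BFP positive cells by 0.32 ± 0.08 on the log2 scale (0.801-fold, adjusted p = 0.01). In BFP negative cells it was lower by 0.25 ± 0.08 (0.843-fold, adjusted p = 0.0375). Among all tested genes, 3.65% were lower in BFP positive cells and 4.19% in BFP negative cells. Both comparisons use the same day 0 libraries, taken before doxycycline and with no sort named in their titles. Time, doxycycline and sorting cannot be told apart in them. Against day 2, a comparison without the day 0 libraries, the day 4 level was lower by 0.34 ± 0.09 in BFP positive cells (adjusted p = 0.00395, with 6.04% of genes lower) and by 0.30 ± 0.08 in BFP negative cells (adjusted p = 0.00911, with 3.8% of genes lower). These last comparisons were added after the data had been seen. In bulk RNA, fewer cells of a type and less RNA per cell cannot be told apart.

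The loss of either day 0 library, or of either BFP positive day 4 library, ended the call against day 0 in BFP positive cells (-0.34 to -0.31, adjusted p = 0.063 to 0.106), and in BFP negative cells the call was lost in 6 of 23 alternatives, with DESeq2 among them (adjusted p = 0.161). The call against day 2 in BFP positive cells kept its direction and its side of the threshold in 23 of 23 alternatives, while in BFP negative cells it was lost in 4 of 23, with DESeq2 among them (adjusted p = 0.067).

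Sorting by induction of the control hairpin gave no call for Myc. BFP positive and BFP negative cells differed by -0.03 ± 0.08 on day 2 (adjusted p = 0.879) and by -0.07 ± 0.08 on day 4 (adjusted p = 1). The 95% interval on day 4 runs from -0.23 to 0.09. At day 2 against day 0 the differences were 0.05 in BFP negative and 0.02 in BFP positive cells.

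In the Ogdh knockdown cells Myc was at 291 and 269 CPM with shOgdh346 and at 268 and 315 CPM with shOgdh2081. These 4 libraries lie on both sides of the control BFP positive libraries of the same day (278 and 279 CPM). The difference over both hairpins was 0.06 ± 0.07 (edgeR adjusted p = 0.613). Its 95% interval ran from 0.943-fold to 1.16-fold. By hairpin the intervals ran from 0.904-fold to 1.15-fold (shOgdh346) and from 0.952-fold to 1.21-fold (shOgdh2081). These intervals reflect only the spread of these libraries, which may be technical. The 4 lowest groups by mean were control BFP negative day 4 (294 CPM), shOgdh2081 (291 CPM), shOgdh346 (280 CPM) and control BFP positive day 4 (278 CPM), each overlapping its neighbour in the order. RNA levels say nothing of MYC protein.

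Max, the partner shared by MYC, MXD, MNT and MGA (chr12:76937269-76962201, minus strand), was lower on day 2 than on day 4 in the control cells, without passing the test. It was at 74.9 and 71.1 CPM on day 0, and at 65.1, 63.0, 71.6 and 64.7 CPM in the control libraries of day 2. On day 4 control BFP negative cells had 74.6 and 76.4 CPM and BFP positive cells 84.6 and 89.99 CPM, the latter above all other control libraries. The share of all tested genes with the same order was not counted. Day 4 against day 2 gave 0.33 ± 0.12 in BFP positive cells (edgeR adjusted p = 0.059) and day 4 against day 0 gave 0.25 ± 0.11 (adjusted p = 0.187). In the test for any difference among the 7 groups, Max was 1 of 6 members, of 9 tested, that passed (adjusted p = 0.00931, lost in 3 of 23 alternatives), as did 49.3% of all tested genes. The others were Myc, Mxd1, Mxd4, Mxi1 and Mga. With Ogdh hairpins it was at 82.6, 88.1, 86.6 and 75.7 CPM, which overlapped the controls (-0.10 ± 0.10, adjusted p = 0.537). Over the 14 libraries the correlation of Myc with Max was -0.89, given as a description, since the libraries share groups and scaling.

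On Ogdh knockdown 4 antagonists rose, Mxd4, Mxd1, Mga and Mxi1. Over both hairpins against control BFP positive cells on day 4, 4 of the 9 tested members rose, 0 fell and 5 did not pass. Among all 10791 tested genes 7.72% rose and 8.36% fell. The median difference of the 9 members was 0.13 on the log2 scale, and that of all tested genes was 0.00. With shOgdh346 alone 4 of 9 rose (5.58% of all genes), and with shOgdh2081 alone 3 of 9 (6.02%). Both hairpins were set against the same pair of control libraries.

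**Figure D2:**
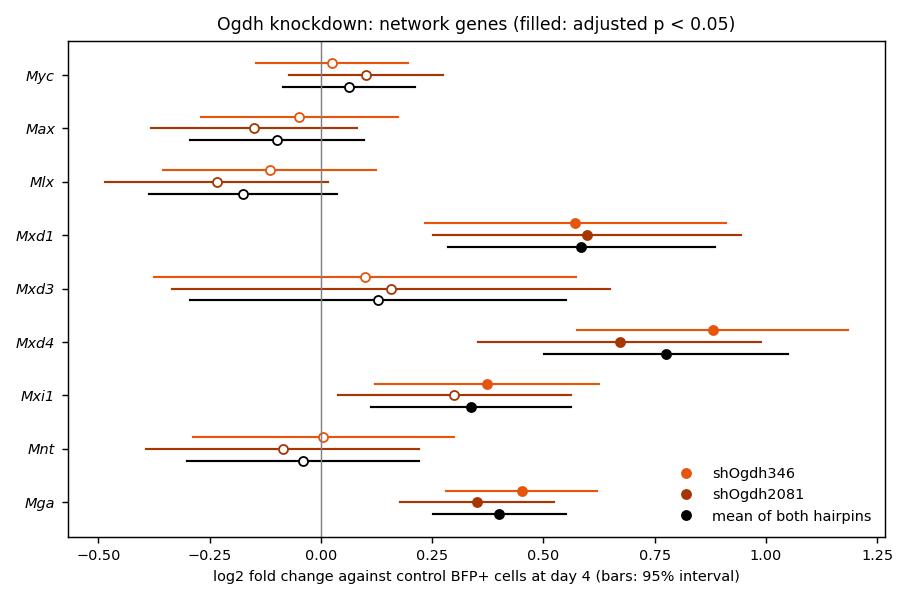
Log2 fold change of each member against control BFP positive cells on day 4 (x axis), for each Ogdh hairpin and for their mean, with 95% intervals and filled points at adjusted p below 0.05. Mxd4, Mxd1, Mga and Mxi1 lie to the right of 0 with both hairpins, and the hairpins' intervals overlap for every gene.

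Mxd4 (chr5:34173883-34187720, minus strand), an MXD repressor, had the largest change of the members. It was at 35.4 and 32.2 CPM in control BFP positive cells, at 58.7 and 74.5 CPM with shOgdh346 and at 41.7 and 57.9 CPM with shOgdh2081. All 4 Ogdh libraries lay above both of these controls, as for 17.1% of tested genes. The rise was 0.78 ± 0.14 on the log2 scale, or 1.71-fold (edgeR adjusted p = 2.8e-05), with 0.88 ± 0.15 for shOgdh346 and 0.67 ± 0.16 for shOgdh2081 (adjusted p = 2.67e-05 and 0.00244). The control level of Mxd4 was itself variable. BFP negative cells had 48.8 and 45.9 CPM on day 2, above the lower shOgdh2081 library. Against BFP negative control cells of day 4, at 45.8 and 38.5 CPM, the rise was 0.50 (adjusted p = 0.000513). The shOgdh2081 value fell to 0.28 without that hairpin's replicate 2 (adjusted p = 0.646).

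Mxd1 (chr6:86647042-86669161, minus strand), known for its expression in maturing myeloid cells, rose as well. It was at 26.6 and 37.3 CPM in control BFP positive cells, at 43.3 and 55.6 CPM with shOgdh346 and at 32.9 and 51.3 CPM with shOgdh2081. The lower shOgdh2081 library lay between the controls, so that the groups overlapped. The rise was 0.59 ± 0.15, or 50.04% (edgeR adjusted p = 0.00399). With shOgdh346 it was 0.57 ± 0.17 and with shOgdh2081 0.60 ± 0.17. The call was lost with DESeq2 (0.56, adjusted p = 0.119), when replicate 1 of control BFP positive cells was left out (0.33, adjusted p = 0.389) and when shOgdh2081 replicate 2 was (0.32, adjusted p = 0.317). With shOgdh2081 alone and without its replicate 2 the value was 0.07.

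Mxi1 (chr19:53310506-53375810, plus strand), also called MXD2, rose by less. Control BFP positive cells had 54.2 and 59.2 CPM, shOgdh346 had 73.7 and 71.0 CPM and shOgdh2081 had 64.7 and 70.8 CPM. The 4 Ogdh libraries lay above all 10 control libraries, as for 6.89% of tested genes. The rise was 0.34 ± 0.11, or 1.26-fold (edgeR adjusted p = 0.0302). By hairpin it was 0.37 ± 0.13 for shOgdh346 (adjusted p = 0.042) and 0.30 ± 0.13 for shOgdh2081 (adjusted p = 0.128). This call, near the threshold, was lost in 9 of 25 alternatives, among them DESeq2 (adjusted p = 0.219), BFP negative cells as the control (0.24, adjusted p = 0.0567) and libraries thinned to equal depth (0.13, adjusted p = 0.733).

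Mxd3 (chr13:55325168-55329823, minus strand), the family member known for expression in dividing cells, was the lowest by count and did not pass. It had 13.2 and 14.9 CPM in control BFP positive cells and 16.2, 9.41, 17.5 and 15.02 CPM in the Ogdh cells. The Ogdh libraries reached above and below the controls. Its difference was 0.13 ± 0.21 (edgeR adjusted p = 0.733), with a 95% interval from -0.29 to 0.55. At 11 to 175 counts per library, a change of the size seen in Mxi1 lies within that interval.

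Mga (chr2:119897228-119969581, plus strand), the very large antagonist of PRC1.6, had 388 to 3718 counts per library. It was at 321 and 373 CPM in control BFP positive cells, at 435 and 529 CPM with shOgdh346 and at 425 and 449 CPM with shOgdh2081. The 4 Ogdh libraries were above all 10 control libraries, which ran from 313 to 373 CPM, as for 6.89% of tested genes. The rise was 0.40 ± 0.07, or 1.32-fold (edgeR adjusted p = 6.44e-05), with 0.45 ± 0.09 for shOgdh346 and 0.35 ± 0.09 for shOgdh2081 (adjusted p = 0.000125 and 0.0038). The call was lost when replicate 1 of control BFP positive cells was left out (0.30, adjusted p = 0.077). Against BFP negative control cells the rise was 0.37 (adjusted p = 5.81e-05).

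Mnt (chr11:74830920-74845725, plus strand), the antagonist expressed in most cells, did not pass. Its level was 40.7 and 50.4 CPM in control BFP positive cells of day 4 and 43.3, 50.5, 40.6 and 42.7 CPM in the Ogdh cells, a difference of -0.04 ± 0.13 (edgeR adjusted p = 0.875). Its mean was highest on day 0, at 58.2 and 55.5 CPM, though 1 library of BFP negative cells on day 2 stood above both, at 59.5 CPM. Day 4 against day 0 gave -0.33 ± 0.13 in BFP negative cells and -0.34 ± 0.14 in BFP positive cells (adjusted p = 0.098 and 0.141), neither of which passed.

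Mlx (chr11:101087277-101092207, plus strand) did not pass either. It was at 68.6 and 80.2 CPM in control BFP positive cells of day 4, at 69.0 and 65.0 CPM with shOgdh346 and at 55.9 and 64.6 CPM with shOgdh2081. The shOgdh2081 libraries were the lowest of all, but by little, since a control BFP positive library of day 2 had 64.7 CPM. How many of all tested genes separate in this way was not counted. The difference of Mlx over both hairpins was -0.17 ± 0.11 (edgeR adjusted p = 0.273). Some 385 bases of its exons, 19.3% of them, overlap Psmc3ip on the other strand, which fell by 0.46 (adjusted p = 0.0442). Since it is not known whether the counting used strand, the values of Mlx are uncertain. Smaller exon overlaps touch Mxd3 (4.43% of its exon bases, with Prelid1), Mxd4 (6.06%) and Mxi1 (2.84%). The partners of the last pair had 0 counts.

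The hairpins did not differ detectably from each other in any member. In the test of shOgdh2081 against shOgdh346, 0 of 9 members passed (edgeR, with 0 at an unadjusted p below 0.05 and 0 by DESeq2), as did 0.0834% of all genes. The largest difference was that of Mxd4, -0.21 ± 0.14, with a 95% interval from -0.49 to 0.07. A difference of that size between the hairpins was not detectable at this depth.

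The 4 members that rose are also the 4 with the longest deposited transcript lengths, namely Mga with 15340 bases, Mxd4 with 8483, Mxd1 with 7072 and Mxi1 with 5619. The other tested members ranged from 1999 bases (Mlx) to 4627 bases (Mnt). Genes with long deposited lengths stood higher as a class in the knockdown cells. Of 3684 tested genes of at least 5619 bases, 11.8% rose and 5.51% fell, with a median of 0.05, against 5.6% that rose and a median of -0.03 among the 7107 shorter genes. Among the 1079 longest genes (median 12331 bases) 17% rose, and their 90th percentile was 0.46, above the 0.40 of Mga. Mxi1 (0.34) was also below the 90th percentile of genes near its length (0.37). Mxd4 (0.78) and Mxd1 (0.59) lay above that of genes near theirs. When a length trend was fitted in each library and removed, all 4 genes still passed. Mxd4 then rose by 0.72, Mxd1 by 0.55, Mxi1 by 0.33 and Mga by 0.27 (edgeR adjusted p = 8.26e-05, 0.0069, 0.0345 and 0.00336). With shOgdh2081 alone the call for Mga was lost under that correction (0.19, adjusted p = 0.105).

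**Figure D3:**
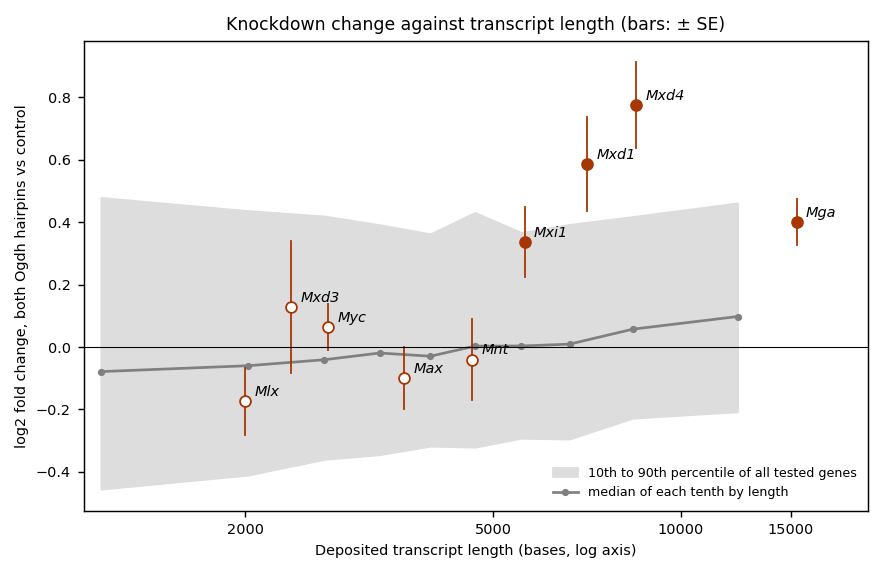
Log2 fold change over both Ogdh hairpins (y axis, bars ± SE) against deposited transcript length in bases (log x axis) for the 9 members, filled where adjusted p was below 0.05. The grey line and band give the median and the 10th to 90th percentile of all tested genes in bins by length. Mxd4, Mxd1, Mxi1 and Mga are the members farthest to the right. Of these, Mxd4 and Mxd1 lie above the band, Mxi1 lies inside it and Mga lies beyond its right end.

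Other sums moved with the same contrast. The summed level of 8 erythroid marker genes was 615 to 637 CPM in control BFP positive cells of day 4 and 799 to 888 CPM in the Ogdh cells, with none of the 8 at 0, and 741 to 745 CPM on day 0. That of 8 mast cell and basophil genes, 1 of which was at 0 and 3 under a mean of 1 CPM, was 741 to 770 against 839 to 877 CPM, although Gata2, on that list, fell by 1.03. The myeloid progenitor sum, carried by Kit and Myb with the other 6 of 8 genes under 1 CPM and 2 of them at 0, was 1177 to 1181 against 1394 to 1432 CPM. Of the 6 megakaryocyte genes, 3 were under a mean of 1 CPM, with 1 of these at 0. Their sum was 61.1 to 61.4 against 65.6 to 71.6 CPM, while all 14 libraries ran from 40.5 to 81.9 CPM. Of the 5 T cell genes, 4 were under a mean of 1 CPM, with 2 of these at 0. Their sum was 0.931 to 1.57 against 2.16 to 3.28 CPM, and the highest control library had 4.38 CPM. The 5 fibroblast genes, 1 at 0, went the other way, from 36.7 to 40.5 CPM in the controls to between 25.2 and 30.5 CPM. The 9 immediate early genes (none at 0), which answer to growth factors and to handling, summed to 319 to 369 CPM in the controls, 148 to 184 CPM in the Ogdh cells and 112 to 125.7 CPM on day 0. Their part in the change of the members was not tested. Without the shallower library of each Ogdh hairpin, all 4 members still rose (Mxd4 0.78, Mxd1 0.60, Mxi1 0.36, Mga 0.36).

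Within the control cells no member except Myc and Mxd4 passed any comparison of days or sort. Mxd4 was higher in BFP negative cells on day 2 than on day 0, by 0.47 ± 0.16 (edgeR adjusted p = 0.042), as 1 of 9 members against 5.33% of all genes that rose. That call was lost in 9 of 23 alternatives, DESeq2 among them (adjusted p = 0.308). In BFP positive cells the same comparison gave 0.04, and on day 2 the BFP positive cells were lower than the BFP negative ones by a value of -0.43 ± 0.16 that did not pass (adjusted p = 0.109). Between day 2 and day 0 of BFP positive cells 17.9% of all genes were called, and 0 of 9 members (edgeR, with 0 at an unadjusted p below 0.05 and 0 by DESeq2). Between BFP positive and BFP negative cells 0 of 9 members were called on day 2, when 6.23% of genes were, with 1 member at an unadjusted p below 0.05. On day 4 0 of 9 were called, with 0.0741% of genes, and 0 at an unadjusted p below 0.05. DESeq2 called 0 members on either day. The sort difference did not change detectably between days 2 and 4 for any member (0 of 9 by edgeR, 0 at an unadjusted p below 0.05, and 0.658% of genes).

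**Figure D4:**
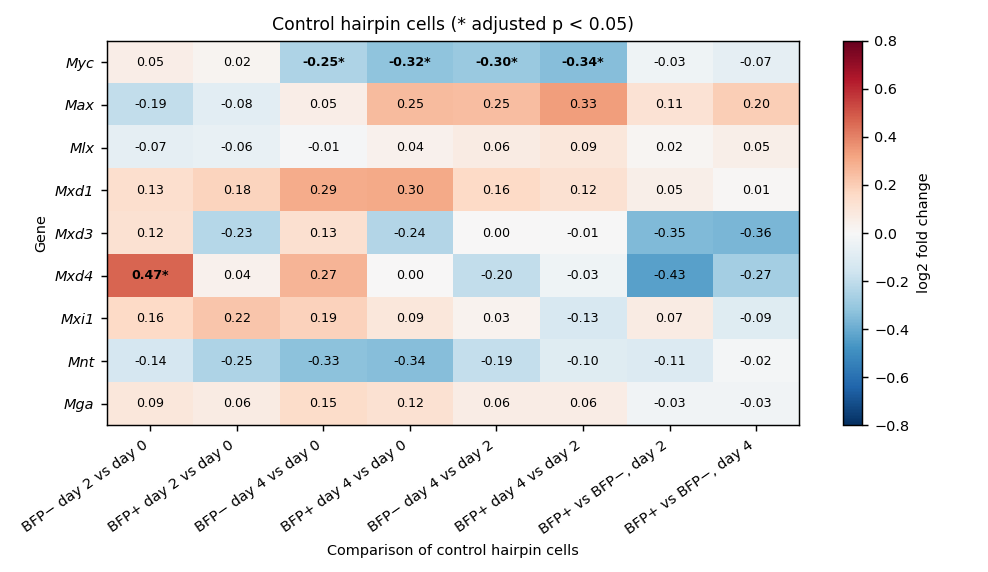
Log2 fold changes of the 9 members (rows) in 8 comparisons among control hairpin cells (columns), coloured by value, with asterisks at adjusted p below 0.05. The asterisks stand in the 4 comparisons of Myc between day 4 and an earlier day, and at Mxd4 in BFP negative cells on day 2.

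The balance of MXD genes to Myc can be read from the length-scaled levels. The sum of Mxd1, Mxd3, Mxd4 and Mxi1 per unit of Myc was 0.187 ± 0.00332 (SD, n = 2) on day 0. It was 0.205 ± 0.0351 in BFP negative and 0.193 ± 0.00114 in BFP positive cells on day 2. On day 4 it was 0.256 ± 0.00712 in BFP negative and 0.239 ± 0.0185 in BFP positive control cells. It was 0.322 ± 0.0200 with shOgdh346 and 0.287 ± 0.00298 with shOgdh2081. All 4 Ogdh libraries, from 0.285 to 0.336, lay above all 10 control libraries, of which the highest was 0.261. The parts differed. From day 0 to day 4 in BFP positive control cells the MXD sum was 23.9 ± 0.595 and 24.5 ± 1.96 CPM per kilobase while Myc was at 127.9 and then at 102.4 CPM per kilobase. Between those controls and the Ogdh cells Myc stayed between 98.5 and 116 CPM per kilobase while the MXD sum was 33.1 ± 0.165 with shOgdh346 and 30.8 ± 3.21 with shOgdh2081. The ratio is a description of RNA with no test, since its members were chosen with earlier results known.

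**Figure D5:**
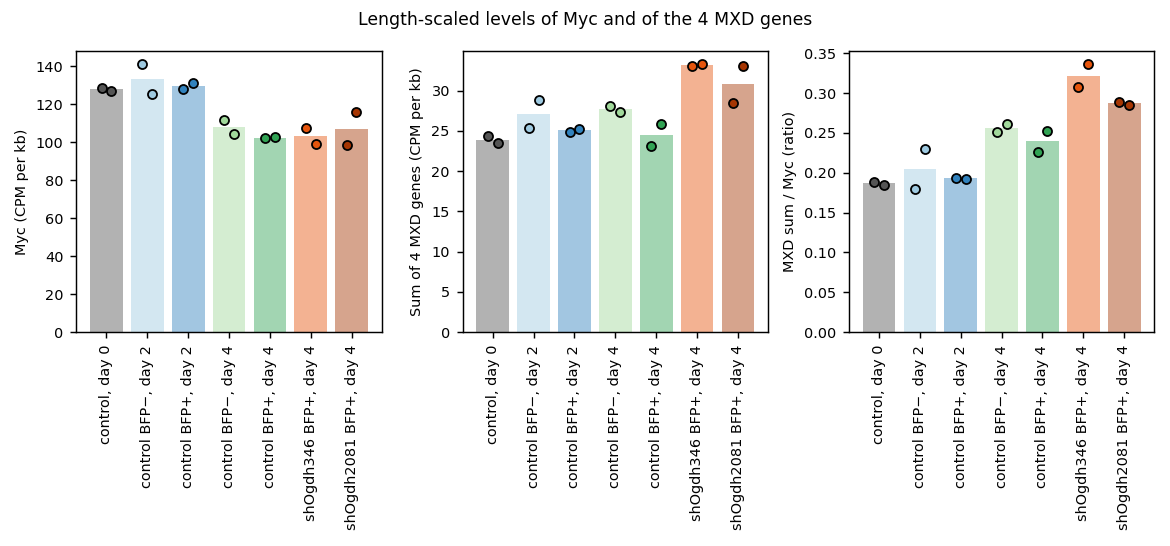
Length-scaled level of Myc (left), summed level of Mxd1, Mxd3, Mxd4 and Mxi1 (middle, both in CPM per kilobase) and their ratio (right), with bars at group means and 1 circle per library. By group mean the ratio is lowest on days 0 and 2, though 1 library of BFP negative cells on day 2 (0.229) lies above 1 of BFP positive control cells on day 4 (0.226). The 4 Ogdh libraries are highest, at 0.285 to 0.336.

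Many genes that MYC is known to activate were lower in the knockdown cells, in which Myc itself did not pass. Of 40 such genes, 26 fell, 2 rose and 12 did not pass, with a median of -0.27 (all tested genes, 8.36% lower and a median of 0.00). Srm, which makes the polyamine spermidine, fell by 0.51 ± 0.07 (edgeR adjusted p = 3.3e-07). Mrto4, a ribosome assembly factor, fell by 0.48, Ccnd2 (cyclin D2) by 0.43 and the mitochondrial chaperone Hspd1 by 0.36 (adjusted p = 1.83e-05, 1.87e-05 and 4.4e-05). The 2 that rose, named after their values were seen, were the transferrin receptor gene Tfrc (0.24 ± 0.07, adjusted p = 0.0138) and the amino acid transporter subunit gene Slc3a2 (0.28 ± 0.07, adjusted p = 0.00557). Both calls were lost without either control BFP positive library of day 4. That of Tfrc was also lost with DESeq2 (6 of 25 alternatives in all), and that of Slc3a2 with thinned libraries (5 of 25). The number lower was 12 when replicate 1 of control BFP positive cells was left out, 15 when replicate 2 was, and 13 with thinned libraries. The median stayed between -0.29 and -0.21 in 25 of 25 alternatives. Ribosome and growth genes have other regulators, so this list is not a readout of MYC alone.

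The same list was read in the control cells, in which Myc fell from day 0 to day 4. On day 4 against day 0, 10 of the 40 genes were lower and 0 higher in BFP negative cells (median -0.14), where 4.19% of all genes were lower. In BFP positive cells 8 were lower and 0 higher (median -0.07), against 3.65% of all genes lower. Cad, the enzyme that begins pyrimidine synthesis, was lower by 0.68 ± 0.08 in BFP negative cells and by 0.71 ± 0.09 in BFP positive cells (edgeR adjusted p = 1.93e-08 and 8.66e-09). Whether the list differed between the knockdown and the time course was not tested. On day 2, BFP positive cells had 6 of the 40 genes higher than BFP negative cells (3% of all genes) and 0 lower, with Ldha (lactate dehydrogenase A) at 0.64 ± 0.07 (adjusted p = 2.52e-09).

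Of 13 genes that MYC is known to repress, 10 were tested. On knockdown 2 rose (7.72% of all genes), 0 fell (8.36%) and 8 did not pass, with a median of 0.14 (0.00 over all genes). The number that rose was 1 with DESeq2, with thinned libraries and without either control BFP positive library of day 4. Klf6, a zinc finger growth inhibitor, rose by 0.83 ± 0.16 (edgeR adjusted p = 6.16e-05), from 21.1 ± 0.548 CPM in control BFP positive cells to 40.3 ± 4.67 with shOgdh346 and 35.1 ± 3.13 with shOgdh2081 (SD, n = 2). Btg2, an antiproliferative gene, rose by 0.96 ± 0.31 (adjusted p = 0.0259), a call lost in 8 of 25 alternatives.

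The genes of proteins that the members work with were read in the same comparison, in which 7.72% of all tested genes rose and 8.36% fell. Of 18 genes of MYC cofactors, 2 fell, 0 rose and 16 did not pass. The 2 were Ruvbl1 and Ruvbl2, ATPases of chromatin remodelling complexes (-0.35 and -0.33, edgeR adjusted p = 0.00219 and 0.00392), each lost when replicate 1 of control BFP positive cells was left out (adjusted p = 0.123 and 0.0605). Of 13 corepressor genes used by MXD and MNT, Arid4b, a subunit of the SIN3 complex, rose by 0.57 ± 0.09 (adjusted p = 7.76e-06), the histone-binding subunit gene Rbbp7 fell by 0.23 (adjusted p = 0.012) and 11 did not pass. The Rbbp7 call was lost without either control BFP positive library. Sin3a, Sin3b, Hdac1 and Hdac2 were among those 11. Of 9 PRC1.6 partners of MGA, Tfdp1, the dimer partner of E2F6, fell by 0.40 ± 0.07 (adjusted p = 2.67e-05) and 8 did not pass. Tfdp1 passed with shOgdh346 (-0.57) and not with shOgdh2081 (-0.24, adjusted p = 0.0509), and the difference between the hairpins did not pass (0.33 ± 0.09, adjusted p = 0.136). The counts in these lists were near the share of all genes called.

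Germ cell genes that PRC1.6 keeps silent were mostly off. Of 12 such genes 3 passed the filter on low counts. Ddx4 rose by 0.83 ± 0.25 (edgeR adjusted p = 0.0156), from 7.34 ± 2.47 CPM to 14.3 ± 3.26 and 11.9 ± 0.186 CPM (SD, n = 2). Tdrkh fell by 1.15 (adjusted p = 0.0193). The Ddx4 call was lost in 6 of 25 alternatives and that of Tdrkh in 6 of 24, DESeq2 among them for both. Since filtering keeps genes that are high in some group, the count over 3 genes supports nothing about the list.

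Of 16 genes that control MYC protein stability, 1 rose, 2 fell and 13 did not pass, near the 7.72% of all genes that rose and the 8.36% that fell. Aurka, a mitotic kinase that also stabilises MYC family proteins, rose by 0.48 ± 0.09 (edgeR adjusted p = 5.29e-05). Pim1, a kinase induced by cytokines, fell by 1.00 ± 0.19, from 24.3 ± 0.683 CPM to 12.5 ± 0.793 and 9.95 ± 3.22 CPM (SD, n = 2). Usp36, a nucleolar deubiquitinase, fell by 0.29, a call lost in 9 of 25 alternatives. Fbxw7 and Huwe1, ubiquitin ligases for MYC, were among the 13.

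On the MLX side, 7 of 8 listed targets of MLX and MondoA were tested, of which 2 fell, 1 rose and 4 did not pass on knockdown. Among all tested genes 8.36% fell and 7.72% rose. Txnip, the glucose-responsive target by which MondoA activity is usually read, fell by 0.41 ± 0.07 (edgeR adjusted p = 2.29e-05), from 296 ± 4.35 CPM to 250 ± 1.77 with shOgdh346 and 199 ± 0.797 with shOgdh2081 (SD, n = 2). The hairpins gave -0.25 and -0.57, a difference of -0.33 ± 0.09 that did not pass (adjusted p = 0.143). On day 4 against day 0 in control cells Txnip had gone the other way. It was 2.82-fold higher in BFP negative and 2.65-fold higher in BFP positive cells (edgeR adjusted p = 2.63e-22 and 5.6e-20). Time, doxycycline and sorting cannot be told apart there. Hk2, hexokinase 2, fell by 0.54, and the arrestin-like gene Arrdc3 rose by 0.66, a call lost when replicate 1 of control BFP positive cells was left out (0.35, adjusted p = 0.432). Mlxip, which encodes MondoA, did not pass on knockdown (0.25 ± 0.10, adjusted p = 0.0756). Of the other factors that bind E boxes, 9 of 12 were tested and 0 were called on knockdown (edgeR, with 1 at an unadjusted p below 0.05 and 0 by DESeq2). With BFP negative cells as the control 1 rose and 1 fell, and with a block for the library set 1 rose.

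Among 19 tested genes of signals known to act upstream of Myc (of 22 listed), 5 fell (8.36% of all genes), 3 rose (7.72%) and 11 did not pass. The growth factor response genes Egr1 (-1.69 ± 0.10), Ier2 (-0.95 ± 0.11) and Spry4 (-0.87 ± 0.14) fell, as did Gata2 (-1.03 ± 0.09), a transcription factor of blood progenitors (edgeR adjusted p = 8.35e-23, 3.81e-09, 7.2e-06 and 3.9e-14). The 3 that rose, named after their values were seen, were Myb, Runx1 and Csf2rb (0.35, 0.52 and 1.08). Myb stayed called in 25 of 25 alternatives. Runx1 was lost in 3 of 25, among them DESeq2 and the fit without control BFP positive day 4 replicate 1. Csf2rb was lost in 3 of 24, among them DESeq2 and the fit without replicate 2 of those controls. Reads of Csf2rb are uncertain because of its near-identical neighbour Csf2rb2. Myc did not pass in that comparison, as given above.

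The genes whose levels ran most like Myc over the 14 libraries, among 7478 with a mean of at least 20 CPM, were Tbc1d10a (Pearson r = 0.93), Fads2 (0.92) and Celsr1 (0.92). Mxd1 had the widest range of group means among the other members, 0.9583 on the log2 scale against 0.9581 for Mxd4 and 0.38 for Myc. The genes closest to Mxd1 were Exoc3 (0.96), Ifnar1 (0.90) and Tmub2 (0.89). Among the members themselves, Mga correlated with Mxd1 (0.85), Mxd4 (0.81) and Mxi1 (0.78). These values are descriptions, given with no test, over libraries that share groups and scaling.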

How the data were processed

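Libraries were polyA-selected, with single-end reads of 76 bases, per the labels' protocols. The deposited table gives counts per gene, which the authors made with Trimmomatic 0.36, STAR 2.6.1a and featureCounts 1.6.3 on mm10 (GRCm38), per the submitters' processing notes. The labels' extract protocol instead names hg19, HTSeq and RPKM, but the deposited values are whole counts of mouse genes, at GRCm38 coordinates for 96.36% of the IDs found in GENCODE M21. The deposited transcript length served only for values per kilobase and the length check. For every member except Mxi1 it equalled the exon bases of all GENCODE M21 transcripts of the gene together. For Mxi1 it was 5619 bases against 6823 such exon bases. The values of Mxi1 per kilobase, and the MXD sum that holds them, depend on that length. A strand setting for the counting was not given in the sources here.

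All 14 libraries were fitted in 1 model by edgeR 4.0.16 (R 4.3.3): filterByExpr, which kept 10791 of 53465 genes, TMM scaling, a quasi-likelihood test for each comparison (two-sided), and Benjamini-Hochberg adjustment over all tested genes, with calls at adjusted p under 0.05. With 2 libraries a group the spread is shared over the 7 groups (7 residual degrees of freedom). An exact permutation test of 2 against 2 cannot go below p = 0.333, so none is given. Intervals are 95% intervals of the fitted log2 difference. CPM uses TMM-scaled totals. The labels do not tell separate cultures from repeat libraries of 1 culture. The p-values therefore measure only the spread of these libraries, which may be technical. Counts within groups differed by more than sampling noise (chi-square per degree of freedom 1.16 to 2.71).

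The members and the gene lists were chosen with earlier results of these data known. From each list, up to 4 called genes with the smallest adjusted p are named per comparison, and pattern neighbours are the 3 genes with the highest Pearson r. Alternatives were DESeq2 1.42.0, its size factors in edgeR, other filters, equal depth, a length offset, blocks by replicate and by library number, BFP negative controls, and each library left out. On data simulated for the knockdown comparison with 10791 genes, the test recovered 26% of 1.25-fold and 78% of 1.5-fold changes. Changed genes were drawn only from those above a minimum mean count. There were 50 for each fold change simulated, while 1735 genes were called in the data, so recovery and false shares may differ there. The simulated spread was that of these libraries, so any further difference between cultures could not appear. Of the calls 4.43% were false, against 8.05% when shOgdh346 alone was simulated. For day 4 against day 0 the false share was 2.84% in BFP negative and 5.56% in BFP positive cells.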

Additional observations from a re-analysis of the deposited data

How the results depend on the processing

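Of 117 comparisons of single members, tried under 2727 alternatives in all, 2652 kept their side of the threshold, 70 lost a call and 5 gained one. No called value changed sign, while 123 values that were not called did, of 2520 that have a direction. The rise of Mxd4 on Ogdh knockdown stayed called in all 25 alternatives run (0.50 to 0.90). The number of members that rose there was 4. It was 3 with no filter, thinned libraries, a block for the library set or BFP negative cells as control, and without control BFP positive day 4 replicate 2 or shOgdh346 replicate 1. It was 2 with DESeq2 or without shOgdh2081 replicate 2, and 1 without control BFP positive day 4 replicate 1. Counts of called genes were lower with DESeq2, with libraries thinned to equal depth and without some single libraries. DESeq2 called 661 genes for both hairpins, 377 for shOgdh346, 415 for shOgdh2081, 1 between the hairpins, 223 and 3 between BFP positive and negative cells on days 2 and 4, 301 and 196 in BFP negative and 792 and 227 in BFP positive cells on days 2 and 4 against day 0, and 2767 among the 7 groups. Thinned libraries gave, in the same order, 706, 391, 483, 2, 190, 0, 229, 145, 748, 236 and 2778. Between the hairpins no filter gave 20 genes. Leaving out single libraries gave 461 to 1899 genes for both hairpins, 369 to 1365 for shOgdh346, 337 to 1401 for shOgdh2081 and 0 to 26 between them. It gave 233 to 716 and 3 to 16 for the sort on days 2 and 4, 330 to 1230 and 222 to 1042 for BFP negative and 860 to 2059 and 178 to 931 for BFP positive cells, and 4755 to 5548 among the 7 groups. The lowest counts for the knockdown, for either hairpin and for BFP positive cells on day 4 came without control BFP positive day 4 replicate 1. Where this left 1 library in a group, that library was assumed to vary like the others. The cause of these shifts was not tested, apart from the fewer counts that thinning leaves. Replicate numbers did not pair the libraries (correlations of their deviations from -0.08 to 0.15 over 21 pairs). A replicate block gave 1850 called genes on knockdown against 1735 without it and 14 between the hairpins. Depth limits Mxd3 and Mxd1 most, which had as few as 11 counts (shOgdh346 replicate 2) and 30 counts (shOgdh2081 replicate 1). No scaling moved the median of all tested genes by 0.1 or more on the log2 scale.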
